A study of Homo sapiens with 12 samples.

Results

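HOX genes encode homeodomain transcription factors that pattern the body axis, and in human they lie in the clusters HOXA, HOXB, HOXC and HOXD. Within a cluster the genes are numbered by paralog group, and low-numbered (anterior) genes act towards the head while high-numbered (posterior) genes act towards the tail and the distal limb. Cell lines keep much of the HOX pattern of the tissue they came from, Polycomb and trithorax group complexes hold it off or on, and HOX proteins bind DNA together with PBX and MEIS cofactors. The RNA of 38 HOX genes was followed here, chosen by symbol (HOXA, HOXB, HOXC or HOXD plus a number, without antisense transcripts) from 61163 genes in the count tables. Of these, 10 were in HOXA on chromosome 7, 10 in HOXB on chromosome 17, 9 in HOXC on chromosome 12 and 9 in HOXD on chromosome 2.

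The RNA came from HEK293T cells, a human embryonic kidney line that carries the SV40 large T antigen. Wild type cells (HEK WT) were compared with cells in which HNRNPUL1, the gene of the RNA-binding protein hnRNP UL1, had been knocked out with CRISPR-Cas9 (HEK UL1 KO). Each line was fractionated into a nucleolar (NO) fraction and the remaining cytoplasmic-nuclear (CN) fraction, and each of the 4 groups had 3 libraries of total RNA made without rRNA depletion. The sources used here do not say whether the KO line is 1 clone, so a trait of that line and an effect of the lost gene cannot be told apart.

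Libraries held 37141666 to 104040073 counted reads, of which rRNA genes and rRNA pseudogenes took 55.3 to 78.7%. HOX genes received 1264 to 3619 counts per library in NO and 2308 to 7326 in CN. The targeted gene was lower in KO in both fractions, with HNRNPUL1 at 17.1 ± 1.41 against 4.80 ± 0.0583 CPM (counts per 1000000 counts, scaled by the trimmed mean of M values, TMM; mean ± SD, n = 3) in CN. Markers of HEK293 cells, 7 genes, summed to 14.6 to 34.9 CPM over the 12 libraries, and 4 or 5 of them had a group mean over 1 CPM. That mean was passed by 1 or 2 of the HeLa markers and by 0 or 1 of the fibroblast and of the blood markers. No marker of any of these lists was at 0 throughout a group. Markers of HeLa cells (6 genes) summed to at most 14.3 CPM, those of fibroblasts (6 genes) to at most 4.43 CPM and those of blood (4 genes) to at most 2.55 CPM. The highest HeLa sum was that of KO NO replicate 1, in which CDH3 had 9.50 CPM, beside 2.02 and 1.64 CPM in KO NO replicates 2 and 3. TMM factors ranged from 0.760 to 1.09 in CN and from 0.622 to 1.40 in NO. In CN, WT replicate 3 stood apart (0.760, with 78.7% of its counts in rRNA genes), and in NO the factors of WT replicates 1 and 2 (0.690 and 0.622) lay below those of the other libraries (1.09 to 1.40). Without WT CN replicate 3, 18 HOX genes were lower in CN, and the NO results are given with and without single libraries.

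In the CN fraction of WT cells HOXA3, an anterior HOXA gene, had the highest level per length of the 38 genes, at 3.95, 4.02 and 6.07 RPKM (TMM-scaled CPM per kilobase of exon). HOXA5 followed with a mean of 2.76 ± 0.756 RPKM (SD, n = 3), and HOXB9 with 2.25 ± 0.165 RPKM, and these neighbours in the order did not differ beyond their spread. HOXC4 (1.67 ± 0.178 RPKM) and HOXD10 (1.44 ± 0.142 RPKM) had the highest levels of their clusters. At the low end HOXC12, HOXD1, HOXB1 and HOXD12 had means of 0.0135 to 0.00463 RPKM. The HOX genes with the most RNA in these cells thus included an anterior member (HOXA3), central members (HOXC4, HOXA5, HOXB6) and posterior members (HOXB9, HOXD10, HOXD13). In KO cells the order at the top was different, and HOXA3 (1.46 ± 0.0308 RPKM) lay within the spread of HOXB9 (1.41 ± 0.0845 RPKM), while HOXA5 had 0.765 ± 0.0407 RPKM. Levels of at least 23 of the 38 genes carry an uncertainty of length, since part of their exons overlaps exons of another gene, often an antisense transcript. Only genes of the GENCODE annotation whose symbol the count tables also list were checked for overlap. Whether counting used strand is not given in the sources used here.

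The first comparison asked how HOX RNA differed between KO and WT cells in the CN fraction. In KO cells 22 of the 35 HOX genes with enough counts to be tested were lower and 1, HOXC12, was higher (adjusted p under 0.05, edgeR's quasi-likelihood test with adjustment over all 27234 genes). Over all genes tested in CN, 22.3% were lower and 15.6% were higher by the same rule. HOXC12 passed the filter on low counts only through its KO libraries, and with at least 10 counts required in every library 0 HOX genes were higher and 19 lower. When each of the 6 libraries was left out in turn, 13 of the 22 lower genes passed in every fit and 9 were lost in at least 1. At an unadjusted p under 0.05, 24 HOX genes were lower and 1 higher, where 26.3% of all genes were lower and 21.5% higher, and DESeq2 called 23 lower and 1 higher, where 19.4% were lower and 9.46% higher. The median log2 fold change of the HOX genes was -0.67, beside 0.04 for all genes, and 29 of the 35 had a value below 0. Without TMM scaling, HOX genes together had 69.4, 71.0 and 70.4 CPM in the WT libraries and 41.2, 42.5 and 42.5 CPM in the KO libraries, so the groups did not overlap. With TMM the summed HOX level was 76.6 ± 13.9 CPM in WT and 39.1 ± 0.481 CPM in KO (SD, n = 3), a ratio of 0.510. HOXB1, HOXD1 and HOXD12 had too few counts for the test. In these bulk fractions, fewer cells with HOX RNA and less HOX RNA per cell cannot be told apart.

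The HOXA cluster had the lowest ratio of KO to WT. It summed to 32.9, 30.7 and 46.6 CPM in the WT CN libraries and to 12.9, 12.8 and 12.7 CPM in the KO CN libraries, a ratio of the means of 0.349. All KO sums lay below all WT sums, and WT replicate 3 was the highest library. Of the 10 HOXA genes 8 fell, the exceptions being HOXA2 (log2 fold change -0.42, SE 0.34) and HOXA7 (0.18, SE 0.40). For HOXA7, 62.5% of the exon bases overlapped the antisense transcript HOXA-AS3 (0.83, SE 0.36, adjusted p = 0.0948 in edgeR's test). The share of HOXA in all HOX CPM was 48.0% in WT and 32.8% in KO. The HOXB cluster had a ratio of 0.614 with 7 of 9 tested genes lower, HOXD a ratio of 0.663 with 3 of 7 lower, and HOXC a ratio of 0.729 with 4 of 9 lower and 1 higher. By paralog group, 3 of 5 tested genes of groups 1 to 3 fell, 12 of 15 of groups 4 to 8, and 7 of 15 of groups 9 to 13. No test of the difference between clusters or between paralog groups was made.

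**Figure D1:**
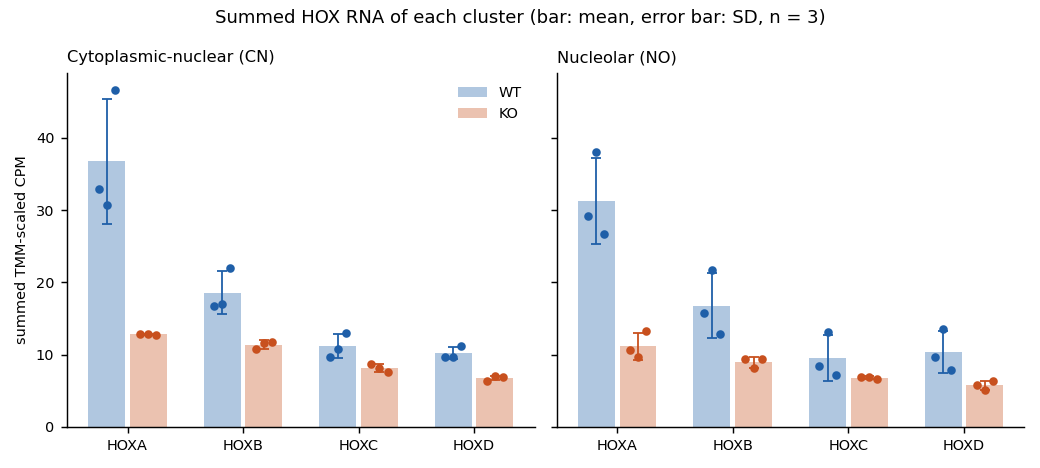
Summed TMM-scaled CPM (y axis) of the genes of each HOX cluster (x axis) in WT and KO cells, with CN in the left panel and NO in the right panel. Bars are means, error bars SD (n = 3) and points single libraries. In CN the HOXA sums of the KO libraries (12.7 to 12.9 CPM) lie below those of the WT libraries (30.7 to 46.6 CPM).

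HOXA5, a homeodomain factor needed for lung and axial skeleton patterning, had 4.23, 3.78 and 6.22 CPM in the WT CN libraries and 1.25, 1.32 and 1.38 CPM in the KO CN libraries. It was the HOX gene with the lowest fold change, with a log2 fold change of -1.85 (SE 0.18, adjusted p = 3.3e-05, edgeR's quasi-likelihood test). HOXA9, a posterior gene known for its role in blood progenitors and leukaemia, had 3.46, 2.86 and 3.92 CPM in WT and 1.11, 1.04 and 0.929 CPM in KO, a log2 fold change of -1.73 (SE 0.15). HOXA3, which patterns the pharyngeal arches, had 17.0, 17.3 and 26.1 CPM in WT and 6.17, 6.28 and 6.43 CPM in KO, a log2 fold change of -1.68 (SE 0.15). In all 3 genes every KO library lay below every WT library.

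The other HOXA genes named here had log2 fold changes close to -1.1. HOXA13, the most posterior member of the cluster and a limb and genital patterning gene, had 2.31, 2.37 and 3.14 CPM in the WT CN libraries and 1.08, 1.32 and 1.08 CPM in the KO CN libraries (log2 fold change -1.16, SE 0.16). HOXA11, which acts in the forearm and the uterus, had 0.760, 0.550 and 1.13 CPM in WT and 0.397, 0.360 and 0.388 CPM in KO (log2 fold change -1.08, SE 0.28). For both genes the groups were separate. HOXA4 had 0.796, 0.730 and 1.01 CPM in WT and 0.479, 0.360 and 0.355 CPM in KO (log2 fold change -1.08, SE 0.23). HOXA6 had 0.558, 0.610 and 1.05 CPM in WT and 0.342, 0.306 and 0.405 CPM in KO (log2 fold change -1.08, SE 0.29), and 39.3% of its exon bases overlapped HOXA-AS3. HOXA4 and HOXA6 are central members of the cluster, and their adjusted p-values in edgeR's test were 0.00412 and 0.0152. Without KO CN replicate 2, HOXA6 (adjusted p = 0.0707) and HOXA11 (adjusted p = 0.0551) did not pass edgeR's test.

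Outside HOXA, HOXB5 had 0.273, 0.323 and 0.544 CPM in the WT CN libraries and 0.164, 0.133 and 0.0507 CPM in the KO CN libraries, a log2 fold change of -1.65 (SE 0.44). It passed the count filter through its WT libraries, the lowest KO library, replicate 3, held 3 reads of this gene, and without that library it did not pass the threshold (adjusted p = 0.0564 in edgeR's test). HOXD13, the gene of the digits, had 3.36, 3.09 and 3.63 CPM in WT and 1.26, 1.57 and 1.33 CPM in KO, a log2 fold change of -1.27 (SE 0.13, adjusted p = 4.2e-05, edgeR's quasi-likelihood test). HOXB6 had 3.49, 2.73 and 4.87 CPM in WT and 1.40, 1.52 and 1.77 CPM in KO (log2 fold change -1.24, SE 0.20). HOXD13 shared no exon with another GENCODE gene that the count tables list, whereas 33.0% of the exon bases of HOXB6 overlapped HOXB3 or HOXB-AS3. HOXB4, known for the expansion of blood stem cells, had 0.451, 0.502 and 0.468 CPM in WT and 0.246, 0.240 and 0.169 CPM in KO (log2 fold change -1.10, SE 0.27). These groups did not overlap for any of the 4 genes.

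The genes with the highest levels of HOXB, HOXC and HOXD had fold changes closer to 0. HOXB9 had 5.35, 5.89 and 6.18 CPM in the WT CN libraries and 3.39, 3.76 and 3.78 CPM in the KO CN libraries (log2 fold change -0.67, SE 0.10, adjusted p = 0.000334 in edgeR's test). HOXC4 had 4.05, 4.81 and 4.97 CPM in WT and 3.56, 3.37 and 3.11 CPM in KO (log2 fold change -0.46, SE 0.11, adjusted p = 0.00714 in edgeR's test). HOXD10 had 3.39, 3.39 and 3.997 CPM in WT and 2.94, 3.05 and 2.89 CPM in KO, and its log2 fold change of -0.28 (SE 0.11) did not pass the threshold (adjusted p = 0.0622 in edgeR's test), although the groups did not overlap. HOXC12 had 4, 5 and 2 reads in the WT CN libraries and 11, 11 and 13 reads in the KO CN libraries (log2 fold change 1.897, SE 0.47, adjusted p = 0.00942 in edgeR's test). Since it was tested only because its KO libraries reached the count filter, this call is a description of the reads, and its levels were among the lowest of the HOX genes. HOXD1, left out by the filter on low counts, had 2, 2 and 1 reads in WT and 9, 8 and 4 reads in KO, and 7.69% of its exon bases overlapped HAGLR or MIR7704.

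The remaining genes that fell had log2 fold changes between -1.06 (HOXA10) and -0.44 (HOXB3). HOXA10, a uterine and limb gene beside HOXA9, had 2.90 ± 0.647 CPM in the WT CN libraries and 1.39 ± 0.172 CPM in the KO CN libraries (SD, n = 3). HOXD4 had 0.733 ± 0.174 CPM in WT and 0.361 ± 0.0775 CPM in KO, a log2 fold change of -1.03 (SE 0.27). HOXB8 had 1.44 ± 0.400 CPM in WT and 0.711 ± 0.0473 CPM in KO, and its log2 fold change was -1.02 (SE 0.21). In each of them the KO libraries were all below the WT libraries. HOXC5, HOXC6 and HOXC8, the central genes of HOXC, had log2 fold changes of -0.48 (SE 0.17), -0.52 (SE 0.17) and -0.73 (SE 0.24), and the reads of HOXC4 and HOXC6 may be shared, since their exons overlap. HOXC5 was lost in 5 of the 6 fits that left out a library, passing only without WT replicate 2. HOXC6 was lost without WT replicate 3 or any of the KO replicates, and HOXC8 without WT replicate 3, KO replicate 1 or KO replicate 2. HOXD4 was lost without KO replicate 1. HOXD11 fell from 1.48 ± 0.183 to 0.953 ± 0.0471 CPM, and 21.4% of its exon bases overlapped its neighbour HOXD10. HOXD9 (0.05, SE 0.34) and HOXD8 (0.36, SE 0.33), which lie beyond HOXD10, had overlapping libraries. The genes that did not pass the threshold, with HOXD10, lay between -0.70 (HOXC10) and 0.36 (HOXD8).

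**Figure D2:**
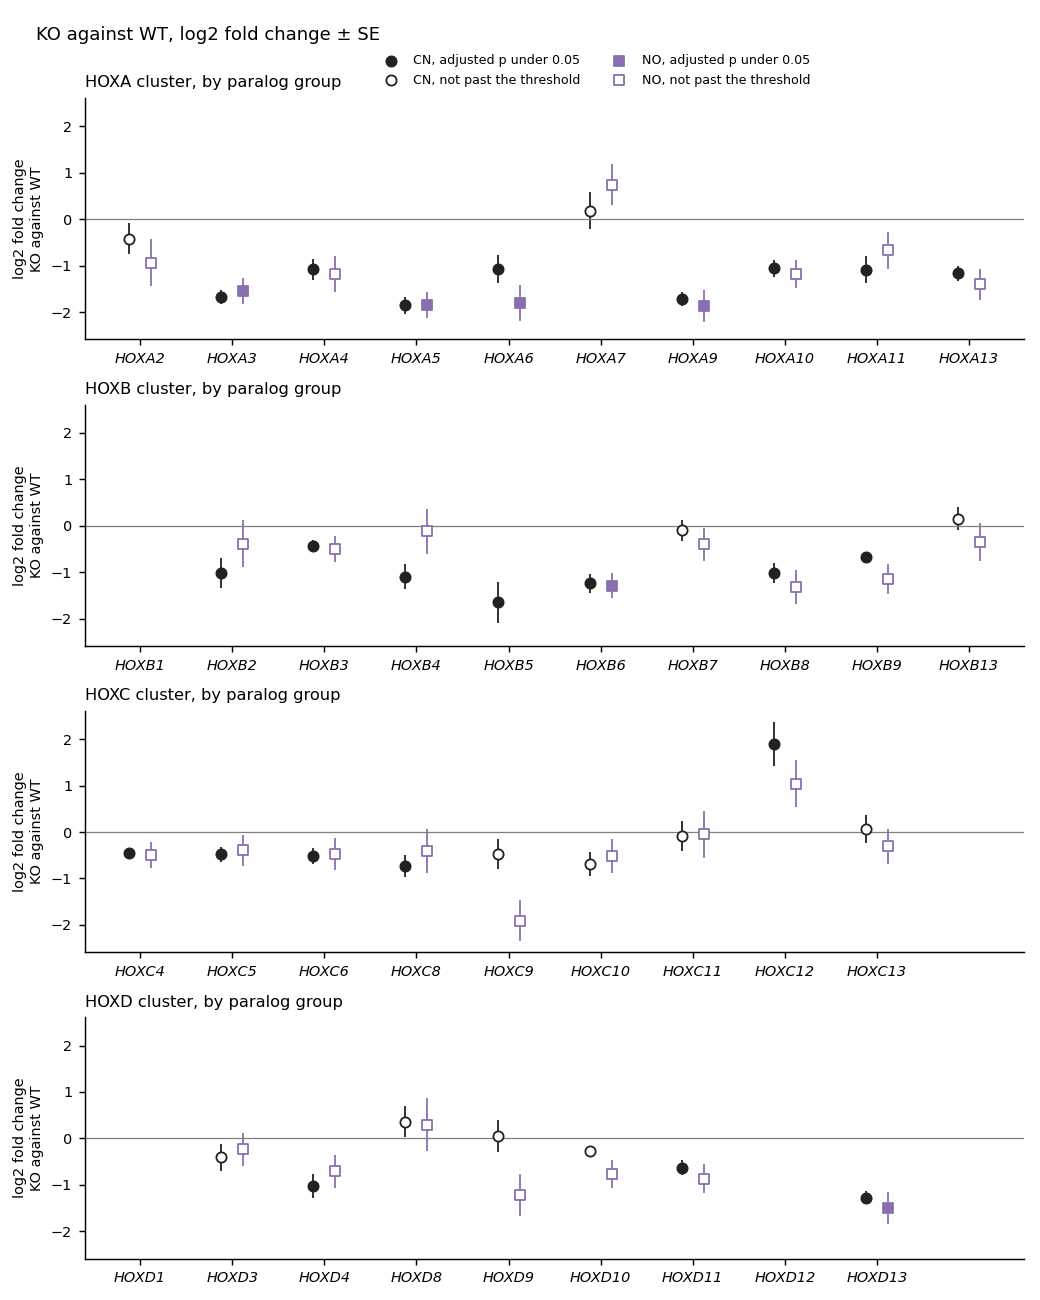
Log2 fold change of KO against WT with its SE (y axis) for the HOX genes of each cluster in order of paralog group (x axis), in CN (circles) and NO (squares). Filled symbols passed an adjusted p of 0.05, and genes without a symbol had too few counts. HOXA5, HOXA9 and HOXA3 lie lowest in CN (-1.85, -1.73 and -1.68), and HOXC12 alone lies above 0 among the filled symbols.

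With scaling by total counts in place of TMM, the median of all genes in CN moved to 0.24 and 11 HOX genes were lower in place of 22, while the HOX median lay 0.69 below that of all genes beside 0.71 with TMM. By that scaling 31.8% of all genes called in CN were lower, beside 58.8% with TMM, and the direction of the 15 HOX genes named here for CN was the same. For 15 HOX genes, the GENCODE exons overlapped those of no other gene that the count tables list. They held 7 that were lower and 1 that was higher among 13 tested. The annotation used for counting is not known, so reads of these genes may still be shared. HOXC5, among the lower ones, has the same RefSeq start (chr12:54016888) as HOXC4 and HOXC6.

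The available RefSeq promoter windows of the genes that were lower in both fractions are shown because these genes moved together. Of the 38 genes 20 had a window in the RefSeq table (GRCh38.p14), among them HOXA3, HOXA6, HOXA9 and HOXD13. HOXA5 and HOXB6, also lower in both fractions, had no window. In HOXB and HOXC only HOXB1, HOXC4 and HOXC5 had one, so the HOX windows are mostly those of HOXA and HOXD. Each line holds the 250 bases before the first listed transcription start, 5′ to 3′ on the strand of the gene. Capitals mark matches, on either strand, to TATAAA (the TATA box), CCAAT (the NF-Y box), GGGCGG (the GC box of SP factors), CACGTG (an E-box) and TGATNNAT (a site type of HOX-PBX pairs).
HOXA3, chr7:27152584-27152833, minus strand: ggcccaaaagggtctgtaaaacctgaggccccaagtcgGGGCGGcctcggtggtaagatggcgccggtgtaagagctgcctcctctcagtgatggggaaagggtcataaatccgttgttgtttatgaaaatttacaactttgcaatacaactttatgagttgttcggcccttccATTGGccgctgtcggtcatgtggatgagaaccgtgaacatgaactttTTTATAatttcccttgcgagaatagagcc
HOXA6, chr7:27147775-27148024, minus strand: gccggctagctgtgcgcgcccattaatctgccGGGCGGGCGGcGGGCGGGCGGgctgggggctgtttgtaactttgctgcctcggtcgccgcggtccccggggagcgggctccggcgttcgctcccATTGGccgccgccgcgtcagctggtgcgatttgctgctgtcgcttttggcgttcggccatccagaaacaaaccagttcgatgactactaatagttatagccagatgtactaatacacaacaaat
HOXA9, chr7:27165538-27165787, minus strand: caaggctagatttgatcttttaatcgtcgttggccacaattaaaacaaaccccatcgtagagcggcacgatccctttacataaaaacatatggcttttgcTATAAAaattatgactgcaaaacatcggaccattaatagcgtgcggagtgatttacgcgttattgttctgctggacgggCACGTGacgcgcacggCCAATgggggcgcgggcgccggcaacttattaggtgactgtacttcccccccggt
HOXD13, chr2:176092471-176092720, plus strand: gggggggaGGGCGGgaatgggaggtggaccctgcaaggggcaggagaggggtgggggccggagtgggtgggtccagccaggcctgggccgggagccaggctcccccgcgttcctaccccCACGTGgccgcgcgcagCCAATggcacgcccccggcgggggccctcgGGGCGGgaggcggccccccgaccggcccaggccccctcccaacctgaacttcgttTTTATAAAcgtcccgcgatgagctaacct

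CCAAT stood in all 4 windows, as in 17 of the 20 HOX windows and 33.0% of the first listed windows of all 27305 genes. On either strand the match began 76 bases before the start in HOXA3, 124 in HOXA6, 55 in HOXA9 and 114 in HOXD13. Of the 12 HOX genes with a window that were lower in CN, 10 held CCAAT. The E-box CACGTG was present in 7 of the 20 HOX windows beside 6.49% of all windows, and in HOXA9 and HOXD13 it lay just before CCAAT. The letters TATAAA occurred in 4 of the 20, beside 11.1% of all windows, and all 4 genes (HOXA3, HOXA9, HOXA10 and HOXD13) were lower in CN. In HOXD13 its matches on both strands overlapped by 4 bases. GGGCGG was found in 10 of the 20, beside 42.3%, with matches in HOXA6 that overlapped by 2 bases, and TGATNNAT in 3 of the 20, beside 6.69%, none of them shown. The median HOX window held 20.5 CpG dinucleotides, beside 11 for all genes. These matches describe the letters of the windows, and binding was not measured. Which start each gene used in these cells was not tested. The HOXA3 window precedes a far start, since HOXA4, HOXA5 and HOXA6 lie within the span of HOXA3. HOXC4 and HOXC5 share a RefSeq start, so their windows may be the same sequence counted for each gene.

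The second comparison was that of KO with WT in the NO fraction. There 6 of 34 tested HOX genes were lower in KO (HOXA3, HOXA5, HOXA6, HOXA9, HOXB6 and HOXD13) and 0 were higher in edgeR's quasi-likelihood test, where 0.574% of all genes were lower and 0.365% higher. At an unadjusted p under 0.05, 15 HOX genes were lower and 0 higher, where 9.81% of all genes were lower and 6.19% higher. Among these, HOXA6, HOXC9 and HOXD9 reached the count filter in all WT libraries but not in all KO libraries. DESeq2 gave an adjusted p for 19 HOX genes and called 9 lower and 0 higher, where 3.35% of all genes were lower and 1.05% higher. The median HOX log2 fold change was -0.69 beside 0.00 for all genes, and 31 of the 34 values lay below 0. HOX genes summed to 63.0, 86.4 and 54.5 CPM in WT and 32.7, 29.8 and 35.5 CPM in KO, a ratio of 0.480. Without TMM scaling, the WT libraries (43.4, 53.7 and 75.9 CPM) and the KO libraries (43.6, 32.3 and 40.7 CPM) overlapped. With scaling by total counts 0 HOX genes passed the threshold and the median of all genes moved to 0.40, with the HOX median 0.59 below it.

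HOXA5 had 3.67, 4.15 and 2.97 CPM in the WT NO libraries and 1.01, 0.824 and 1.15 CPM in the KO NO libraries, a log2 fold change of -1.85 (SE 0.28, adjusted p = 0.00413, edgeR's quasi-likelihood test). HOXA9 had 3.03, 3.47 and 2.06 CPM in WT and 0.903, 0.377 and 1.01 CPM in KO (log2 fold change -1.87, SE 0.35). HOXA3 had 15.4, 22.0 and 15.6 CPM in WT and 5.79, 5.48 and 6.85 CPM in KO (log2 fold change -1.55, SE 0.29). Each KO library was below each WT library in these genes. HOXA6, which reached the count filter in all WT libraries but only 2 of the KO libraries, had 0.642, 0.897 and 0.709 CPM in WT and 0.226, 0.259 and 0.141 CPM in KO (log2 fold change -1.81, SE 0.39). HOXD13 had 2.696, 3.78 and 1.55 CPM in WT and 0.776, 1.08 and 0.985 CPM in KO (log2 fold change -1.50, SE 0.34). HOXB6 had 3.16, 4.05 and 3.24 CPM in WT and 1.42, 1.34 and 1.48 CPM in KO (log2 fold change -1.30, SE 0.27). These groups were separate as well, HOXD13 with the widest spread among its WT libraries. The other named genes did not pass the threshold in NO, among them HOXA13 (-1.41, adjusted p = 0.051 in edgeR's test), HOXB9 (-1.15) and HOXB4 (-0.12, with overlapping libraries), and HOXB5 was not tested. HOXC12 had 5, 2 and 8 reads in WT and 24, 10 and 11 in KO (log2 fold change 1.03, SE 0.51, adjusted p = 0.326 in edgeR's test).

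The NO count rested on single libraries. It was 17 without WT replicate 3, 3 without WT replicate 1 or without WT replicate 2, 2 without KO replicate 1, 1 without KO replicate 2 and 4 without KO replicate 3. Over all genes, 5546 of 36336 tested were lower without WT replicate 3, beside 200 of 34836 with every library. In the other fits that left out a library, 63 to 156 of all genes were lower. In each of these fits 0 HOX genes were higher, and HOXA5 remained past the threshold and lower.

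**Figure D3:**
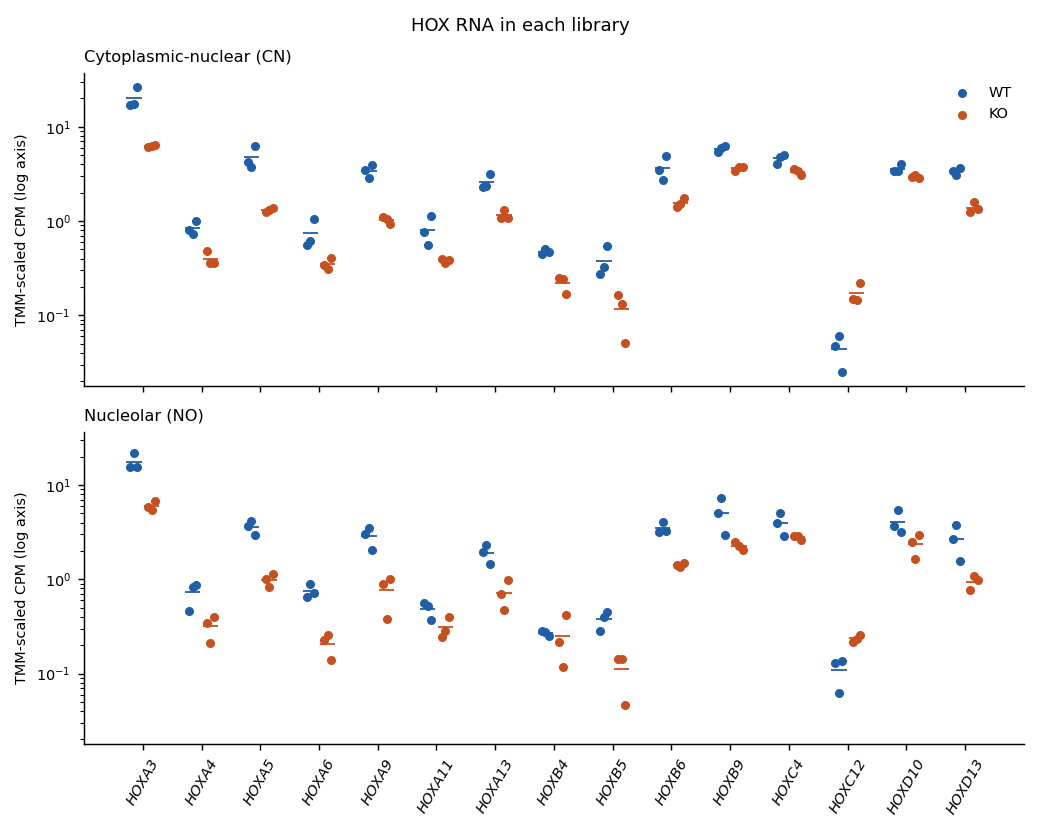
TMM-scaled CPM on a log axis (y axis) of the named HOX genes (x axis) in each library of WT and KO cells, with CN above and NO below. Points are libraries and short lines group means (n = 3). HOXA3 is highest in every group, and HOXC12 is the gene whose KO libraries lie above the WT libraries in both fractions.

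Whether the KO effect differed between the fractions was tested as an interaction over all 12 libraries. Of 35 HOX genes tested 0 were higher and 0 lower in edgeR's test, where 0.0846% and 0.0291% of all genes passed, and DESeq2 also called 0 of 34, where 0.164% of all genes were higher and 0.0951% lower. At an unadjusted p under 0.05, 1 HOX gene was lower and 0 higher, a share near that of all genes (2.02% lower and 1.30% higher). It was HOXC9, with a log2 fold change of -1.91 in NO and -0.46 in CN (difference -1.29, SE 0.54, adjusted p = 1 in edgeR's test). In NO HOXC9 reached the count filter in all WT libraries but in only 1 KO library, with 13, 8 and 8 reads in the KO libraries. Its NO value is thus a description of the reads. The difference for HOXA3 was 0.29 (SE 0.30). Of the 34 HOX genes tested in both fractions, 31 had the same sign of KO against WT in NO and CN (91.2%), beside 80.5% of 26397 genes. Across these 34 genes the fold changes of both fractions had a Pearson correlation of 0.762 and a Spearman correlation of 0.686, beside 0.758 and 0.799 across all genes, a description over genes that are not independent of each other, and whether both fractions came from the same cultures is not given in the labels.

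The fractions themselves were then compared. In WT cells 13 of 34 tested HOX genes were lower in NO than in CN and 0 were higher in edgeR's quasi-likelihood test, where 20.9% of all genes were lower and 31.9% higher. At an unadjusted p under 0.05, 18 were lower and 0 higher, where 24.6% of all genes were lower and 34.2% higher, and DESeq2 called 19 of 38 lower and 0 higher, where 18.4% of all genes were lower and 22.5% higher. In KO cells 24 of 34 were lower and 0 higher in edgeR's test, where 35.6% of all genes were lower and 40.7% higher. At an unadjusted p under 0.05 the HOX counts were also 24 and 0, where 36.5% of all genes were lower and 41.4% higher, and DESeq2 called 24 of 38 lower and 0 higher, where 25.1% were lower and 24.1% higher. The median log2 fold change of NO against CN was -0.66 in WT and -0.86 in KO for HOX genes, beside 0.02 and 0.03 for all genes. HOXB4 had the lowest value in WT (-1.25, SE 0.35), and HOXC9 the lowest in KO (-1.39, SE 0.38). HOXA3, with the most RNA, had -0.67 (SE 0.21) in WT and -0.66 (SE 0.14) in KO. The few genes above 0 in WT were HOXA2, HOXC9, HOXD3 and HOXD9, at most 0.52, and none of them passed the threshold. These comparisons share libraries with those of KO and WT, and the counts depended on scaling: with total counts 0 HOX genes were lower in WT, and 1 was lower and 1 higher in KO, while the median of all genes moved to 0.37 and 0.79. In WT the count of 13 fell to 7 without NO replicate 1 and to 6 without CN replicate 3. Genes that flank the clusters had medians of -0.66 in WT and -0.88 in KO, close to those of the HOX genes.

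**Figure D4:**
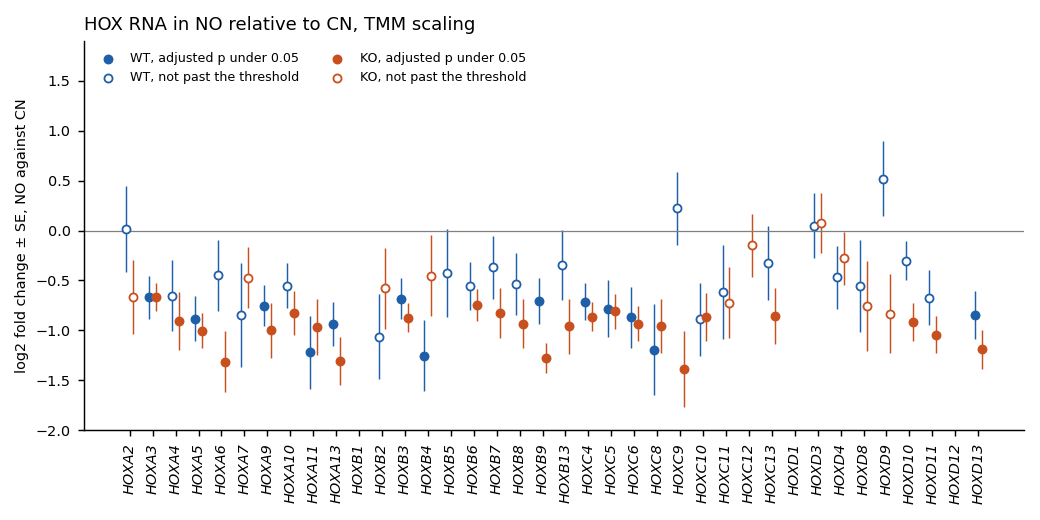
Log2 fold change of NO against CN with its SE (y axis, TMM scaling) for each HOX gene (x axis) in WT and KO cells. Filled points passed an adjusted p of 0.05, and genes without a point had too few counts. Of the 34 genes tested in each line, 30 lie below 0 in WT and 33 in KO.

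Transcripts of the same clusters that do not encode HOX proteins were read next. Of 25 antisense, non-coding and read-through genes 8 could be tested in CN. Among these 1 fell and 2 rose in KO, where 22.3% of all genes were lower and 15.6% higher. HAGLR, an antisense transcript of the HOXD cluster that overlaps exons of HOXD1 and HOXD3, had 0.665, 0.670 and 0.658 CPM in WT and 1.60, 1.32 and 1.10 CPM in KO (log2 fold change 1.01, SE 0.18). HOXB-AS1, which overlaps exons of HOXB2 and HOXB3, had 0.0594, 0.132 and 0.101 CPM in WT and 0.342, 0.373 and 0.270 CPM in KO (log2 fold change 1.75, SE 0.38). In both, every KO library lay above every WT library, while HOXB2 (-1.02, SE 0.31) and HOXB3 (-0.44, SE 0.13) were lower in the same fraction. HOXB-AS1, with 5, 11 and 8 reads in WT and 25, 28 and 16 reads in KO, passed the count filter only through its KO libraries. HOXB2 was lost without WT replicate 1, KO replicate 1 or KO replicate 2, and HOXB3 without WT replicate 3 or any of the KO replicates. HOTAIR of the HOXC cluster (0.11, SE 0.17) and HOTAIRM1 of the HOXA cluster (0.04, SE 0.17) did not pass the threshold. The read-through gene HOXA10-HOXA9 fell (-1.29, SE 0.14), but in every library its count was 1.09 to 1.26 times the summed counts of HOXA9 and HOXA10, so the values may rest in part on the same reads, which was not tested. In NO it was the only one of 12 tested to pass (-1.38, adjusted p = 0.0346 in edgeR's test), where 0.574% of all genes were lower and 0.365% higher. The 6 microRNA hairpins among these 25 genes had at most 6 counts in any library.

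The 5 nearest protein-coding genes on each side of each cluster were compared with the HOX genes in CN. Their distances from the cluster ranged from 3525 bases (EVX2) to 1358091 bases (IFT70B, which is not in the count tables). Of 35 tested flanking genes 11 fell and 4 rose in KO, where 22.3% of all genes were lower and 15.6% higher. The median log2 fold change of the flanking genes was -0.14. The values that passed ranged from -0.69 (AGPS, a peroxisomal lipid enzyme) to 0.96 (SKAP1, an adaptor of T cell signalling), and TAX1BP1 had -0.66. AGPS lies 1201866 bases from HOXD, SKAP1 83465 bases from HOXB and TAX1BP1 539282 bases from HOXA. In NO 0 of 36 flanking genes passed edgeR's test (2 at an unadjusted p under 0.05), where 0.574% of all genes were lower and 0.365% higher. At the unadjusted threshold 9.81% of all genes were lower and 6.19% higher. The difference between flanking and HOX genes was not tested.

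**Figure D5:**
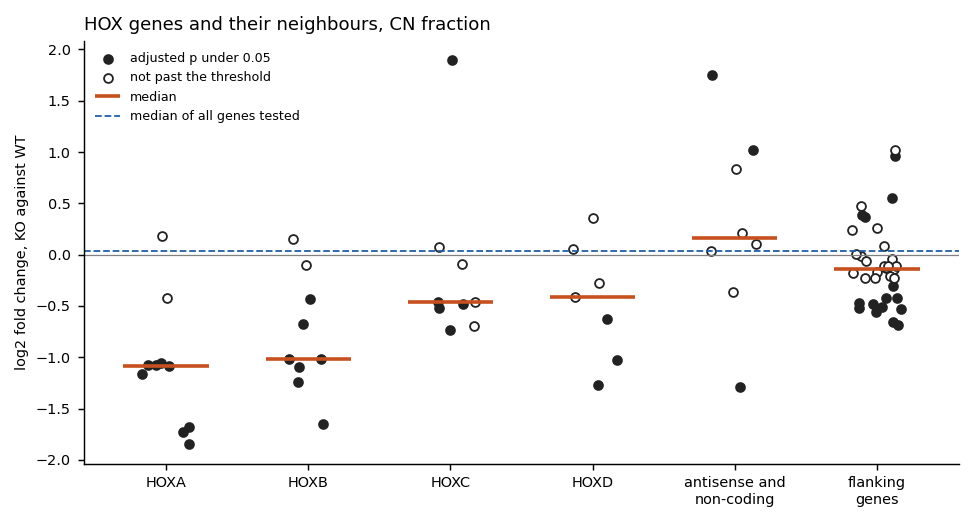
Log2 fold change of KO against WT in CN (y axis) for the tested genes of each HOX cluster, for the antisense and non-coding genes of the clusters and for flanking genes (x axis). Each point is a gene, filled where the adjusted p was under 0.05, and the bars are medians. The medians of the HOXA (-1.08) and HOXB (-1.02) genes lie below that of the flanking genes (-0.14).

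Other genes of the HOX pathway passed the test in both directions in CN, as did genes at large (22.3% lower and 15.6% higher), and whether these lists differed from that share was not tested. Of 9 TALE homeodomain cofactors 3 fell and 2 rose in KO. PBX3 had 41.6, 41.1 and 70.0 CPM in WT and 19.8, 20.4 and 18.2 CPM in KO (log2 fold change -1.39, SE 0.18). PBX2 (1.10, SE 0.14) and MEIS3 (1.00, SE 0.24) were higher. Of 12 genes of Polycomb repressive complex 1, 5 fell and 2 rose, with CBX6 at -1.40 (SE 0.14) and PHC3 at -1.19 (SE 0.07) the lowest. Of 11 genes of Polycomb repressive complex 2, which methylates histone H3 at HOX clusters, 5 fell and 0 rose, RBBP4 by the most (-0.87, SE 0.07), followed by MTF2 (-0.58, SE 0.07). The list of MLL and trithorax group genes, which keep HOX genes on, held 5 of 13 that fell and 0 that rose. MLLT3, a reader of acylated histones in the elongation complexes that MLL fusions recruit, had 34.6, 35.8 and 44.6 CPM in WT and 12.6, 13.9 and 11.8 CPM in KO (log2 fold change -1.58, SE 0.11). KMT2B had -0.62 (SE 0.22, adjusted p = 0.0497 in edgeR's test), with overlapping libraries. Of 16 tested genes of the retinoic acid pathway, an inducer of anterior HOX genes in embryos, 4 fell and 4 rose, among them ALDH1A2 (-0.92, SE 0.21), ALDH1A3 (1.24, SE 0.20) and the retinol transporter gene STRA6 (1.93, SE 0.33). Among 6 tested ParaHox and HOX-linked homeobox genes only EN2 passed (-0.63, SE 0.16). The medians were -0.08 for the cofactors, -0.03 and -0.12 for the Polycomb complexes 1 and 2, -0.28 for the MLL and trithorax list and 0.18 for the retinoic acid list, beside -0.67 for HOX genes and 0.04 for all genes. In NO, CBX6 (-1.46, adjusted p = 0.0247) and MLLT3 (-1.40, adjusted p = 0.0379) were the only genes of these lists to pass edgeR's test.

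Genes that mark HEK293 cells also differed between the lines in CN, where 3 of 7 rose and 3 fell. Over all genes tested there, 15.6% were higher and 22.3% lower. Among those that rose, LHX1 and ENO2 reached the count filter in all KO libraries but in only 2 WT libraries. EYA1, a kidney and ear development gene, had a log2 fold change of -1.79 (SE 0.13), and LHX1, a gene of early kidney tubules, of 1.85 (SE 0.26). Summed, the 7 markers had 20.1 to 27.2 CPM in WT and 14.6 to 15.9 CPM in KO. Fibroblast markers summed to 0.759 to 0.897 CPM in WT and 1.59 to 1.98 CPM in KO. Of 3 tested fibroblast genes 2 were higher, COL1A1 and LUM. LUM and the other tested gene, COL3A1, reached the count filter in all KO libraries but in only 1 WT library. Blood markers summed to 0.127 to 0.419 CPM and 0.320 to 0.479 CPM, and HeLa markers to 0.645 to 3.91 CPM and 1.57 to 2.99 CPM. Their part in the HOX differences was not tested.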

How the data were processed

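RNA was measured in 12 libraries, 3 for each cell line (HEK WT, HEK UL1 KO) and fraction (NO, CN), which the submitters call biological triplicates. The authors prepared CORALL total RNA libraries without rRNA depletion, trimmed single reads with Cutadapt 3.7, checked them with FastQC 0.11.4, aligned them to GRCh38 with STAR 2.7.8 and counted genes with featureCounts. Counting options, strand setting and annotation release are not given in the sources used here. The authors deposited raw counts per gene, 1 table for each fraction, and these count values were used as deposited.

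Counts were scaled with TMM and tested with edgeR 4.0.16 (quasi-likelihood F test, R 4.3.3), after filterByExpr (about 10 counts in 3 libraries and 15 in total), over all genes, with Benjamini-Hochberg adjustment and a threshold of 0.05. Each comparison used its 6 libraries, and the interaction all 12. An SE is the log2 fold change divided by the square root of F. Depth sets the precision: with at most 7326 HOX counts in a library, genes with few counts had wide errors. The test was checked on simulated counts. In CN, the called genes HOXC12, HOXB-AS1, LHX1, ENO2, LUM and STRA6 reached the cutoff of the filter in all libraries of KO but not of WT. HOXB5 reached it in all of WT but not of KO. DESeq2 1.42.0, the tool of the study's methods, served as an alternative, beside other scalings, filters and sets of libraries. Levels per length used the union of GENCODE exons (GRCh38), and positions and promoters came from RefSeq (GRCh38.p14).

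The members and gene lists were chosen with earlier results of these data known. Values by library are given for the HOX genes with an adjusted p under 0.05 in either fraction, up to the 12 with the largest log2 fold change in CN, and for the gene with the highest level per length in each cluster, and of other lists up to 3 called genes are named. HOTAIR, HOTAIRM1, HOXA-AS3, EYA1, LHX1, ENO2, COL1A1, COL3A1, LUM, CDH3 and the HOX genes named beyond this rule were chosen after their values were seen. Of 39 rows that match the symbol rule, 1 is not reported here.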

Additional observations from a re-analysis of the deposited data

How the results depend on the processing

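For KO against WT, the 6 HOX genes lower in NO became 0 with total counts, 12 with no filter, 2 with at least 10 counts in every library, 11 with all 12 libraries in one fit and 15 at an unadjusted p, and 1 to 17 when single libraries were left out. Over all genes, the 200 of 34836 lower in NO became 3 with total counts and 877 of 58785 with no filter. They became 71 of 25395 with at least 10 counts and 1131 of 37806 with all 12 libraries, and 63 to 5546 when single libraries were left out. In CN the 22 lower became 11 with total counts and 15 to 23 when single libraries were left out, and the 1 higher became 2 with no filter (HOXD1 was added) and 0 with at least 10 counts. Over all genes, the 6070 of 27234 lower in CN became 1724 with total counts and 4498 to 5661 when single libraries were left out. The 4253 higher became 4699 of 55591 with no filter and 4535 of 22137 with at least 10 counts. For NO against CN in WT, the 13 lower became 0 with total counts, 20 with no filter, 6 with at least 10 counts, 25 with all 12 libraries and 6 to 19 when single libraries were left out, while the number higher was 0 to 1. Over all genes, the 6139 of 29340 lower became 606 with total counts and 8491 of 57449 with no filter. They became 3822 of 21813 with at least 10 counts and 10363 of 37806 with all 12 libraries, and 4371 to 8820 when single libraries were left out. In KO the 24 lower became 1 with total counts, where 1 was higher, 8 with at least 10 counts and 21 to 25 when single libraries were left out. Over all genes, the 12264 of 34468 lower became 825 with total counts, where 18471 were higher. They became 5220 of 23719 with at least 10 counts and 10494 to 13217 when single libraries were left out. The interaction had 1 lower at an unadjusted p. Fewer HOX genes were tested under the stricter filter (22 in KO against WT in NO), and other causes were not tested. With the full counts divided by the unshared exon bases only, HOXC4 had 2.02 and HOXD10 1.76 RPKM in WT CN. This can only raise a level, and reads on shared bases were not removed.

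Libraries that share a number had only negative correlations of their deviations (-0.545 to -0.0444). Linked libraries could also deviate in opposite directions, so this check cannot decide whether the numbers mark pairs. The main fits treat the libraries as unpaired, and pairing was not tested further. With the replicate block the lower HOX genes were 2 in NO and 18 in CN for KO against WT, and 4 in WT and 24 in KO for NO against CN. Over all genes, 119 of 34836, 5449 of 27234, 3858 of 29340 and 11234 of 34468 were lower in these fits, in the same order.

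Of 367 values of single genes under alternatives 313 stayed on the same side of the threshold with the same direction, 40 no longer passed it, 11 newly passed it and 3 changed sign. These were HOXB4 (0.33) and HOXC4 (0.0191) in NO with total counts and HOXB4 in NO without KO replicate 2 (0.21, where leaving out single libraries gave -0.61 to 0.21), none of them past the threshold. Over all genes, the calls in KO against WT in NO numbered 327 (61.2% lower), but 10 with total counts (30% lower), 1082 with DESeq2 (76.1%), 1190 with no filter (73.7%) and 143 with at least 10 counts (49.6%). Without WT NO replicate 3 these calls numbered 9133 (60.7% lower). In CN they numbered 10323, and 5421 with total counts.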
